A study of Mus musculus with 10 samples.

Results

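Prostaglandins and leukotrienes are lipid mediators made from arachidonic acid. The 10 genes described here encode enzymes that make or inactivate them, a protein that assists one such enzyme and a receptor. They were chosen as named rows of the deposited expression tables: Ptgs1, Ptgs2, Ptges, Ptgds, Hpgd, Ptger4, Alox5, Alox5ap, Alox12 and Alox15, which is 10 of 48897 rows in each table. RNA-seq had been carried out on 10 mouse samples in 4 groups, to ask how losing Arid1a, which encodes a DNA-binding component of the SWI/SNF chromatin remodeller, changed gene expression in prostate cancer. Prostate epithelium, sorted as EpCAM+ and CD45- cells, came from C57BL/6 mice at 3 months of age. The 3 control libraries (A, B and C) and the 3 libraries labelled Arid1a KO were all from genetically engineered mice with a prostate-specific deletion driven by Probasin-Cre, so that none was wild type, and the label of the latter 3 adds Arid1aPC-/-. Myc-CaP, a prostate cancer cell line of FVB origin driven by a Myc transgene, gave 2 libraries with an empty vector and 2 with Arid1a knocked out by a lentiviral CRISPR vector. Whether these 4 libraries came from culture or from tumours grown from the line is not settled by the labels.

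Arachidonic acid is freed from membranes by phospholipases and then follows branches. Cyclooxygenases turn it into prostaglandin H2, from which terminal synthases make prostaglandin E2, D2, I2, F2 alpha and thromboxane. Lipoxygenases turn it into leukotrienes, hydroxy acids and lipoxins. Leukocytes carry most of the leukotriene branch, while the inducible cyclooxygenase and prostaglandin E2 are widely studied in inflamed and malignant epithelium.

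The targeted gene was examined first. Arid1a in the epithelium was between 21.9 and 27.8 RPKM (read counts corrected for how long the gene is and how deeply its library was sequenced) in the controls and between 28.8 and 31.1 RPKM in the libraries labelled Arid1a KO. It was therefore not reduced in the libraries that carry the knockout label, and the log2 difference was 0.25 ± 0.09 (SE, adjusted p = 0.054, limma). The values are per gene, so loss of single exons cannot be seen in them. Directions in the epithelium are accordingly given for "libraries labelled Arid1a KO". In Myc-CaP cells Arid1a fell from 60.5 and 61.0 TPM (values scaled by gene length to the same sum in each library) with the empty vector to 39.5 and 40.3 TPM (adjusted p = 0.0102, limma). Epithelial keratin and adhesion genes were high in the sorted epithelium (Epcam 304 ± 40.9 RPKM and Krt8 859 ± 108 RPKM in the controls; SD, n = 3 each), but Ptprc, which encodes the CD45 antigen that the sort was meant to remove, was at 28.6 ± 2.30 RPKM there and at 57.3 ± 0.983 RPKM in the libraries labelled Arid1a KO. In Myc-CaP cells Epcam was listed at 0 in both empty vector libraries and Krt8 was between 0.790 and 1.07 TPM, so that the defining markers of epithelium were near absent from that line, and Krt8 was between 38.8 and 40.3 TPM after knockout of Arid1a.

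All 10 genes were detected and passed the test in the epithelium. In the libraries labelled Arid1a KO, 7 rose (Ptgs1, Ptgs2, Ptger4, Alox5, Alox5ap, Alox12 and Alox15) and 3 fell (Ptges, Ptgds and Hpgd). The share of all genes tested that passed was 57.1% (27.5% higher and 29.6% lower), so a large share of the transcriptome had moved as well. The direction of Ptgds was fixed by the filter on low values, as described with that gene. The ranges of the groups did not overlap in any of the 10 genes, against 66.7% of all genes tested. Their median log2 difference was 0.41, beside -0.028 over all genes. With each library rescaled to the same sum, the median of all genes moved to 0.111 and the share of calls that were higher from 48.1% to 64.9%, while all 10 genes kept their call and direction. A call means an adjusted p-value under 0.05 from limma, fitted across all genes of the table on log2(RPKM + 1), a scale that understates the change of low genes. Fewer cells of a type and less RNA per cell cannot be told apart in such bulk libraries.

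**Figure D1:**
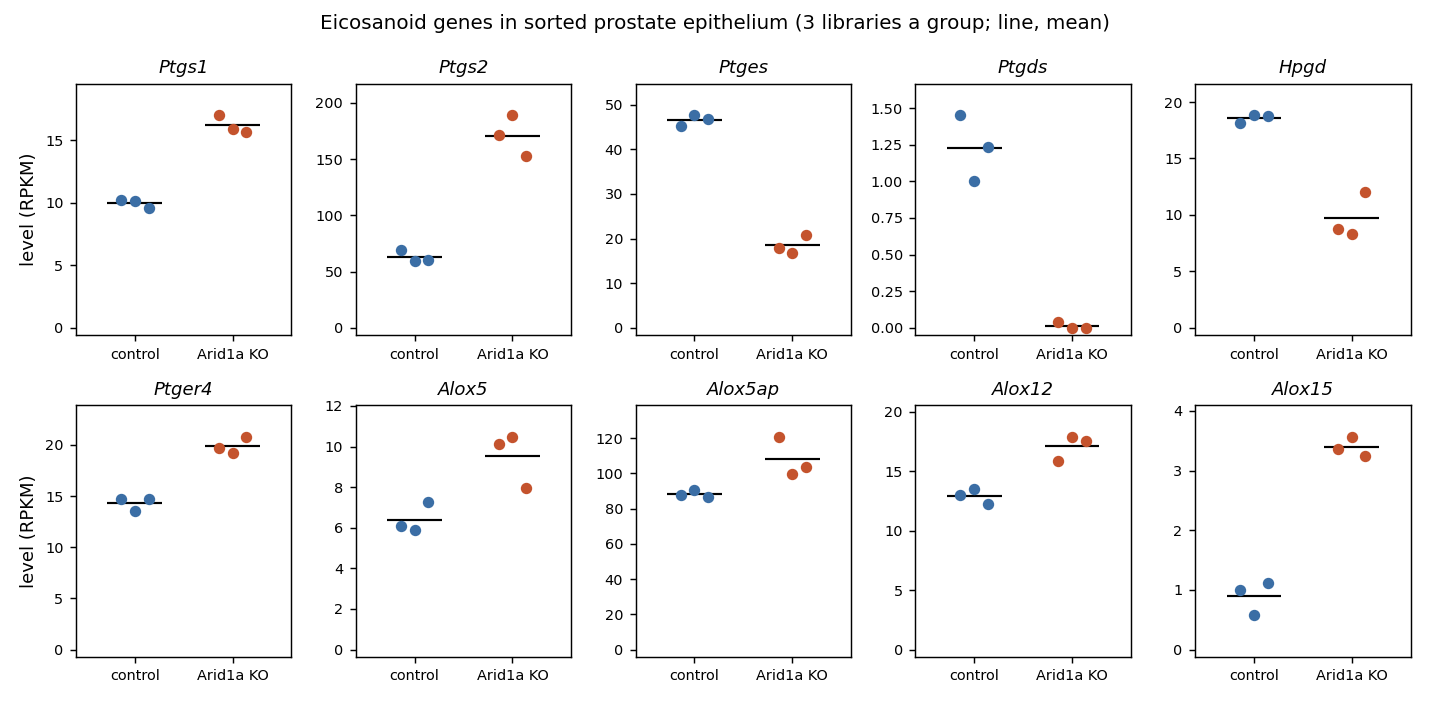
Level of each gene in RPKM (vertical axis, starting at 0, a separate scale for each gene) in the 3 control libraries (blue) and the 3 libraries labelled Arid1a KO (orange), points from left to right being A, B and C and the line the mean. The groups lay apart in all 10 panels, with Ptges, Ptgds and Hpgd lower and the other 7 genes higher in the libraries labelled Arid1a KO.

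The cyclooxygenases carry out the committed step to all prostanoids. Ptgs2 encodes the inducible enzyme, which responds to cytokines and growth factors, and it was at 68.8, 59.7 and 60.6 RPKM in controls A, B and C. It was at 171, 189 and 153 RPKM in libraries A, B and C labelled Arid1a KO. Every library labelled Arid1a KO thus lay far above every control, and the gene had passed from the second to the highest level among the 10. The means were 63.0 ± 5.01 and 170.9 ± 18.1 RPKM (SD, n = 3 each), which is 2.71-fold, with a log2 difference of 1.42 ± 0.10 (SE, adjusted p = 4.08e-05). Ptgs1, the enzyme that most tissues express constitutively, was at 10.2, 10.2 and 9.58 RPKM in the controls and at 16.96, 15.9 and 15.6 RPKM in the libraries labelled Arid1a KO. It rose 1.62-fold (log2 difference 0.64 ± 0.06, adjusted p = 1.66e-04), and its spread within a group was small beside the gap. The ratio of Ptgs2 to Ptgs1, both per length, was 6.74, 5.88 and 6.33 in the controls, against 10.1, 11.9 and 9.76 where the label was Arid1a KO. Both enzymes rose, and the excess of the inducible over the constitutive enzyme was greater in all 3 libraries labelled Arid1a KO than in the controls.

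Ptgs2 lies on chromosome 1 (150100031 to 150108227, plus strand, GRCm38) and Ptgs1 on chromosome 2 (36230426 to 36252272, plus strand). Of the 10 genes, 8 had a promoter window in the RefSeq table (GRCm38.p6; 250 bases before and 50 after the transcription start), and Alox5ap and Alox15 had none. The 250 bases before the start of Ptgs2 (chr1:150099781-150100030, plus strand), Ptgs1 (chr2:36230176-36230425, plus strand) and Ptges (chr2:30903298-30903547, minus strand) are printed because these are the genes on which the comparison of the epithelium with Myc-CaP cells turns. The first 28 bases after the annotated start of Ptgs2 (chr1:150100031-150100058) are added because they hold the letters of a cyclic AMP response element. Positions are counted from annotated starts, and whether transcription begins there was not tested. Capitals mark the motifs found, and all sequences run 5′ to 3′ on the strand of the gene.
Ptgs2: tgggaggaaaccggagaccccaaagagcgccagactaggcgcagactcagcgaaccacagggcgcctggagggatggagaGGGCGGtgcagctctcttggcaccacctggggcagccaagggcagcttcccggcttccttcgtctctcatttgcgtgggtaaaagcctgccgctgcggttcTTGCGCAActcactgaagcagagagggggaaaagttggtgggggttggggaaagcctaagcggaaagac
Ptgs2, after the start: agagtcaccactACGTCACGTGgagtcc
Ptgs1: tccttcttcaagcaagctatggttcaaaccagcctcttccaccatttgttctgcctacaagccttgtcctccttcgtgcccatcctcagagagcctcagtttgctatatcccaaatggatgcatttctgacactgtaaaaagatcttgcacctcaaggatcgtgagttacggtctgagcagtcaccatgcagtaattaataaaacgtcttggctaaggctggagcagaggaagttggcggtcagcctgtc
Ptges: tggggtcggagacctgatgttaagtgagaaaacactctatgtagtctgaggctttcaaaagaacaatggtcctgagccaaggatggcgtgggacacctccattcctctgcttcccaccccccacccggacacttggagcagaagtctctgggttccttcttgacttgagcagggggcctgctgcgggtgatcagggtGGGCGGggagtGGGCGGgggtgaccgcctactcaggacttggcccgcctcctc

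The windows were searched on both strands for the letters of 7 motifs. In Ptgs2 a C/EBP motif (TTGCNNAA) began 69 bases before the start, a GC box (GGGCGG) began 170 bases before it, and a cyclic AMP response element (TGACGT, read on the opposite strand) and an E-box (CACGTG) overlapped from base 13 and base 17 after it. Over all 32851 windows of that length, 10.8% held the C/EBP letters, 35.7% the GC box, 7.51% the cyclic AMP response element and 7.15% the E-box. Ptges held 2 GC boxes, 53 and 42 bases before its start, and Ptgs1 held none of the 7 motifs. GC boxes were found in 6 of the 8 windows (Ptgs2, Ptges, Alox5, Hpgd, Alox12 and Ptger4), the AP-1 letters (TGANTCA, 7.81% of all windows) in that of Ptgds, and the TATA box letters (TATAAA, 13.6%) in that of Hpgd. The NF-kB consensus, which 2.46% of all windows held, was in none of the 8, which says no more than that these letters are not in these windows. Such matches describe letters and are not evidence of a bound site. An antisense gene, Ptgs2os, lies on the opposite strand with 67 bases between it and the start of Ptgs2, and covers part of the printed stretch. The Ptges window lies inside the annotated span of its gene, because a longer transcript begins upstream. The level of Ptgs2os was between 0.0677 and 0.150 RPKM in the controls and between 0.0696 and 0.110 RPKM in the libraries labelled Arid1a KO, so the groups overlapped for it. Ptgs2os2, a second noncoding gene of the neighbourhood, rose from 1.33 ± 0.282 to 1.98 ± 0.231 RPKM (adjusted p = 0.0284).

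Both terminal synthases among the 10 genes were lower in the libraries labelled Arid1a KO. Ptges encodes the microsomal enzyme that completes prostaglandin E2 and usually rises together with the inducible cyclooxygenase. It was at 45.2, 47.6 and 46.7 RPKM in the controls and at 17.9, 16.7 and 20.8 RPKM in the libraries labelled Arid1a KO. Ptges therefore fell while Ptgs2 rose in the same libraries, and the controls were 2.52-fold higher (means 46.5 ± 1.19 and 18.5 ± 2.07 RPKM, log2 difference -1.29 ± 0.08, adjusted p = 3.33e-05). The gene spans 30889471 to 30929863 on the minus strand of chromosome 2. The annotation places an overlapping gene, Gm13400, on the same strand, and how reads in any shared part were counted is not known. Ptgds, the lipocalin-type synthase of prostaglandin D2 (chromosome 2, 25466709 to 25470046, minus strand), was low. It was at 1.45, 0.9996 and 1.24 RPKM in the controls, at 0.0361 RPKM in library A labelled Arid1a KO and listed at 0 in B and C. With the annotated gene length and the depth estimated from the smallest values, this is about 60.2 to 71.2 reads per control library and 1.80 reads in library A labelled Arid1a KO. Ptgds passed the filter on low values only through the controls, so it had to be lower in the other group, and its log2 difference of -1.13 ± 0.10 (adjusted p = 1.26e-04) is given without a fold.

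Hpgd encodes the dehydrogenase that inactivates prostaglandins by oxidation and is often lost where the inducible cyclooxygenase is gained. Its level was 18.1, 18.8 and 18.7 RPKM in controls A, B and C, against 8.77, 8.32 and 12.04 RPKM in the libraries labelled Arid1a KO. Library C labelled Arid1a KO stood above the other two and still below each control. The controls were 1.91-fold higher, with a log2 difference of -0.88 ± 0.12 (adjusted p = 8.13e-04). Hpgd lies on chromosome 8 (56294585 to 56321043, plus strand) and shares that strand with an overlapping gene, Gm45540. Set against the enzyme that starts the pathway, the ratio of Ptgs2 to Hpgd was 3.79, 3.17 and 3.24 in the controls and 19.5, 22.7 and 12.7 in the libraries labelled Arid1a KO. All 3 of the latter ratios lay above the controls, and that of library C was the lowest of them.

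Ptger4 encodes EP4, a prostaglandin E2 receptor that raises cyclic AMP, and lies on chromosome 15 (5206661 to 5244187, minus strand). It was at 14.7, 13.5 and 14.7 RPKM in the controls and at 19.7, 19.2 and 20.8 RPKM in the libraries labelled Arid1a KO, a rise of 1.39-fold (log2 difference 0.45 ± 0.06, adjusted p = 9.30e-04). The receptor thus rose by less than either cyclooxygenase.

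All 4 genes of the lipoxygenase branch rose. Alox5 (chromosome 6, 116410077 to 116461178, minus strand) encodes the enzyme that makes leukotriene A4. Alox5ap (chromosome 5, 149264767 to 149288153, plus strand) encodes the membrane protein that presents arachidonic acid to it. Alox5 was at 6.08, 5.87 and 7.26 RPKM in the controls and at 10.1, 10.5 and 7.96 RPKM in libraries A, B and C labelled Arid1a KO. Control C and library C labelled Arid1a KO lay close to each other, and the rise was 1.49-fold (log2 difference 0.50 ± 0.12, adjusted p = 0.0082). Alox5ap, with 87.4, 90.8 and 86.6 RPKM, had the highest level of the 10 genes in the controls. It was at 120.5, 99.8 and 104 RPKM in the libraries labelled Arid1a KO, a rise of 1.22-fold (log2 difference 0.28 ± 0.08, adjusted p = 0.0206). This was the smallest of the 10 differences, and its call was lost without control A (adjusted p = 0.0584), without control C (0.067) and without library A labelled Arid1a KO (0.0566).

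Alox12 encodes the platelet-type lipoxygenase, which is also made by some epithelia, and Alox15 an enzyme of macrophages and eosinophils that contributes to lipoxins. Alox12 was at 12.98, 13.5 and 12.2 RPKM in the controls and at 15.9, 17.9 and 17.6 RPKM in the libraries labelled Arid1a KO (1.33-fold, log2 difference 0.38 ± 0.07, adjusted p = 0.00304). Alox15 was far lower, at 0.996, 0.578 and 1.12 RPKM in the controls and at 3.37, 3.56 and 3.24 RPKM in the libraries labelled Arid1a KO. Its fold, 3.78, was the largest of the 9 that could be given, and the log2 difference was 1.22 ± 0.12 (adjusted p = 1.78e-04). Those levels amount to about 51.9 to 85.7 reads per control library and 229.5 to 262.9 reads per library labelled Arid1a KO, again by estimate. Alox12 (70241457 to 70255353) and Alox15 (70344152 to 70352031) lie on the minus strand of chromosome 11 with Alox12e, the epidermal-type lipoxygenase, between them, 60256 bases from Alox12 and 21523 bases from Alox15. Alox12e was at 0.780 ± 0.203 RPKM in the controls and at 18.3 ± 4.04 RPKM in the libraries labelled Arid1a KO (n = 3 each). It rose 23.5-fold (log2 difference 3.42, adjusted p = 1.15e-05), and of these neighbours the middle gene moved by the most.

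Levels per length can be set in order within a library. The control order was Alox5ap, Ptgs2, Ptges, Hpgd, Ptger4, Alox12, Ptgs1 and Alox5, each pair of neighbours with ranges apart, and then Ptgds and Alox15, whose ranges overlapped. With the Arid1a KO label the order was Ptgs2, Alox5ap and then Ptger4, Ptges, Alox12 and Ptgs1, of which each neighbouring pair overlapped, followed by Hpgd and Alox5, which overlapped as well, then Alox15 and Ptgds. Ptges had left the third place, which it held alone in the controls, for a group of 4 genes with means between 16.2 and 19.9 RPKM. The summed level of the 10 genes was between 259 and 266 RPKM in the controls and between 354 and 385 RPKM in the libraries labelled Arid1a KO.

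The other genes of the pathway were described from 7 lists holding 59 genes. In the epithelium 43 were tested, of which 18 rose, 14 fell and 11 did not pass. Of these calls, 1 rise (Cysltr2) and 2 falls (Pla2g2d and Pla2g2e) were of genes that passed the filter on low values only through the higher group, so their direction was fixed by it. The median log2 difference was 0.01, and the share called, 32 of 43, stands beside the 57.1% of all genes.

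Of the 20 genes of arachidonate release, 11 were tested, 3 rose and 6 fell, though 4 rose and 3 fell with libraries rescaled to the same sum, and 3 and 3 with a minimum mean of 5. The falls missing with that minimum were of genes then too low to be tested. The 2 falls of Pla2g2d and Pla2g2e were fixed by the filter. Pla2g12a, a secreted phospholipase A2, fell from 16.8 ± 2.48 to 5.89 ± 0.478 RPKM, and the controls were 2.86-fold higher (adjusted p = 7.29e-05). Pla2g4a, the cytosolic phospholipase that feeds the cyclooxygenases, rose from 12.5 ± 0.766 to 16.5 ± 1.58 RPKM (adjusted p = 0.00739). Anxa1, which restrains phospholipase A2 and so acts against the name of its list, rose 2.06-fold from 372 ± 45.5 to 767 ± 62.5 RPKM (adjusted p = 2.58e-04) and made up most of the summed level of that list.

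Of the 8 other prostanoid synthases, 2 rose and 5 fell (3 and 4 with libraries rescaled to the same sum). Those that fell included Ptgis, the prostacyclin synthase (29.1 ± 3.72 to 12.5 ± 2.38 RPKM, adjusted p = 4.92e-04), and Cbr1, a carbonyl reductase that turns prostaglandin E2 into F2 alpha (62.8 ± 8.46 to 27.8 ± 5.34 RPKM, adjusted p = 4.59e-04). Akr1b3, an aldose reductase with prostaglandin F synthase activity and the highest level of the list, fell from 154 ± 9.83 to 82.7 ± 19.9 RPKM (adjusted p = 0.00192). Tbxas1, the thromboxane synthase, rose 2.04-fold to 13.6 ± 0.520 RPKM (adjusted p = 4.20e-05), and Hpgds, the haematopoietic synthase of prostaglandin D2, rose 1.65-fold to 8.44 ± 0.705 RPKM (adjusted p = 6.20e-04). The cytosolic prostaglandin E synthase Ptges3 was at 35.1 ± 0.756 and 35.4 ± 0.651 RPKM (adjusted p = 0.869). Ptges2, the third prostaglandin E synthase, fell from 11.5 ± 1.68 to 8.21 ± 1.01 RPKM (adjusted p = 0.0152). Ptges2 did not pass, and Ptges3 passed as higher (log2 difference 0.18), with libraries rescaled to the same sum, while Ptges was called lower under each alternative run.

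Inactivation and receptors moved less evenly. Ptgr1, a reductase that inactivates prostaglandins and leukotriene B4, fell from 55.3 ± 6.95 to 19.8 ± 5.05 RPKM (log2 difference -1.45, adjusted p = 3.30e-04), in the same direction as Hpgd. Among 4 genes of transport and inactivation, Abcc4, an exporter, rose (adjusted p = 0.0315, a call lost under 6 of 14 alternatives), and Slco2a1 and Ptgr2 did not pass. Of 5 prostanoid receptors tested besides Ptger4, 2 rose. Ptger2, which like Ptger4 raises cyclic AMP, rose 3.00-fold from a low 0.536 ± 0.0807 to 1.61 ± 0.245 RPKM (adjusted p = 7.00e-04), and Ptger1 was at 22.6 ± 0.573 and 25.2 ± 0.714 RPKM (adjusted p = 0.0499, lost under 10 of 14 alternatives). Ptger3, Ptgir and Tbxa2r did not pass.

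In the leukotriene branch 5 of 9 enzymes and exporters rose and 2 fell, and 4 of 5 tested receptors of leukotrienes and lipoxins rose, of which Cysltr2 could only have risen under the filter. Among the synthases, Ltc4s, which conjugates leukotriene A4 with glutathione, rose 2.05-fold from 11.2 ± 0.283 to 22.9 ± 2.61 RPKM (adjusted p = 1.21e-04). Lta4h, which makes leukotriene B4, was at 28.01 ± 0.463 and 31.2 ± 0.562 RPKM (1.11-fold, adjusted p = 0.0449), a call lost under 9 of 14 alternatives. The enzymes that trim the glutathione conjugate moved in opposite directions. Ggt1 fell from 24.3 ± 1.89 to 1.97 ± 0.491 RPKM, 12.3-fold higher in the controls (adjusted p = 5.47e-06), and Dpep1 fell from 15.9 ± 2.96 to 5.75 ± 0.532 RPKM (adjusted p = 1.87e-04). Dpep2, the dipeptidase of leukocytes, rose 3.69-fold from 3.89 ± 0.771 to 14.4 ± 2.41 RPKM (adjusted p = 1.19e-04). Cyp4f18, which degrades leukotriene B4, rose 2.13-fold to 83.7 ± 14.9 RPKM (adjusted p = 5.04e-04). Of the receptors, Cysltr1 rose 2.23-fold to 6.47 ± 0.451 RPKM (adjusted p = 6.54e-04) and Fpr2, the receptor of lipoxin A4, 1.53-fold to 11.3 ± 0.875 RPKM (adjusted p = 0.00193). With a trend on gene length removed, 3 rather than 5 enzymes and exporters passed as higher. Lta4h lost its call, and Dpep2 was not tested in that run because no gene length was available for it.

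**Figure D2:**
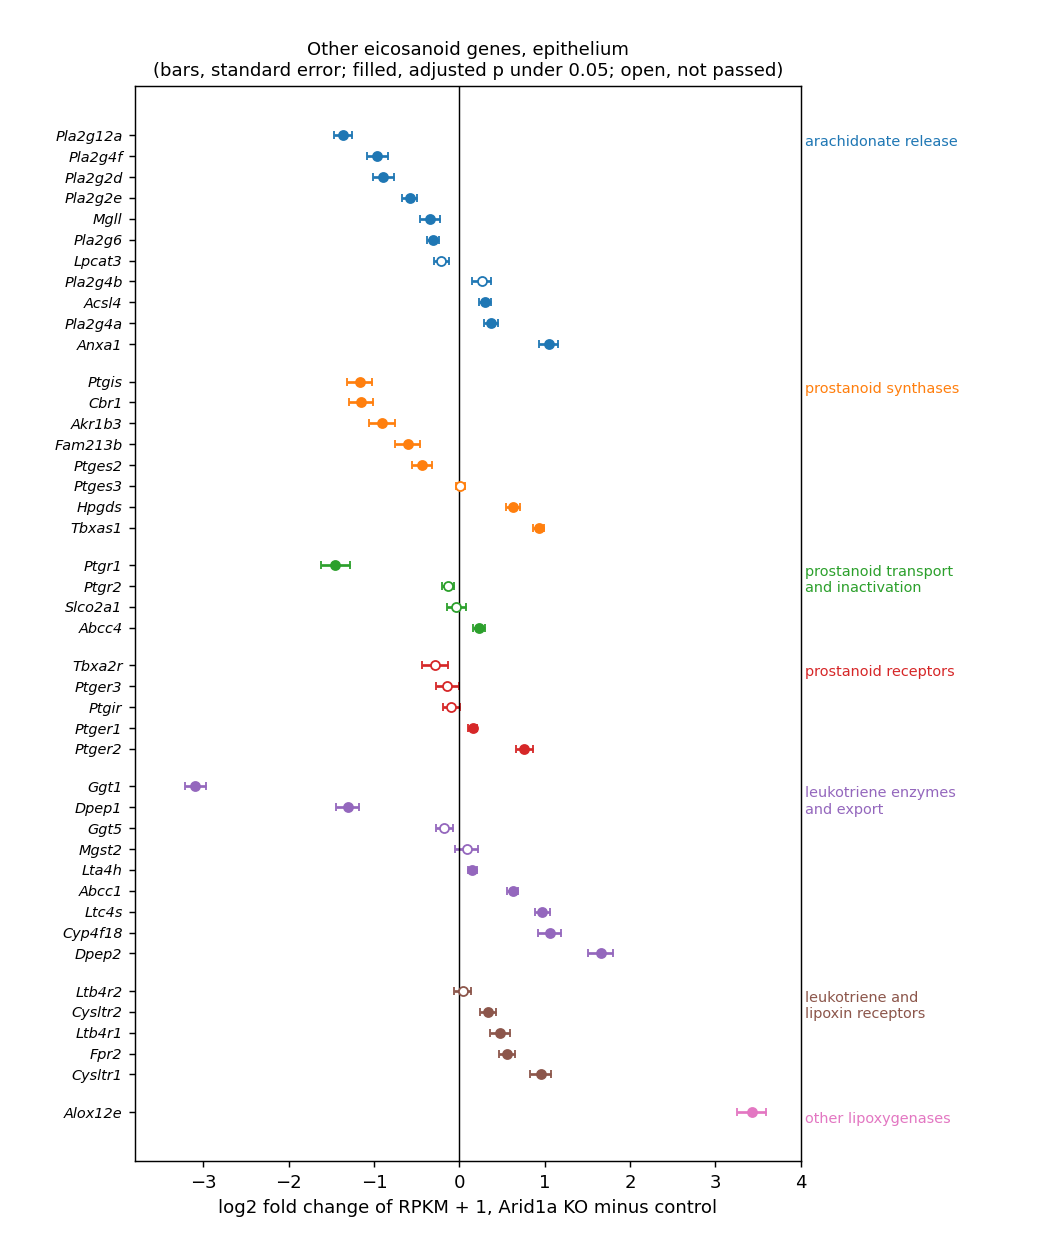
Log2 fold change of RPKM + 1 (horizontal axis, libraries labelled Arid1a KO minus control, bars are standard errors) for the 43 other eicosanoid genes tested in the epithelium, coloured by list, with filled points for genes that passed the test and open points for those that did not. Ggt1 at -3.10 and Alox12e at 3.42 mark the ends, and the prostanoid synthases lie mostly to the left while the leukotriene receptors lie at or to the right of 0.

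Markers of several other cell types also differed between the groups in the epithelium, in directions that varied between and within lists. Of the calls counted below, those of Ly6g, Camp, Prg2, Ppbp, Trpm5, Sh2d6, Svs1, Svs3a and Svs3b had their direction fixed by the filter on low values. The counts stand beside 27.5% of all genes tested that were higher and 29.6% that were lower. All 9 macrophage markers rose, and their summed level was between 2328 and 2715 RPKM in the controls and between 4168 and 4891 RPKM in the libraries labelled Arid1a KO. Ptprc rose by 0.98 on the log2 scale (adjusted p = 5.36e-05), beside 0.50 for Alox5, 0.28 for Alox5ap and 0.97 for Ltc4s on the same scale. Of 8 neutrophil markers tested 3 rose and 1 fell, and their sum overlapped between the groups (340 to 476 and 385 to 634 RPKM). The 6 mast cell markers tested all fell, with sums between 282 and 327 RPKM in the controls and between 48.0 and 87.3 RPKM in the libraries labelled Arid1a KO. Hpgds and Ltc4s, which mast cells express among other cells, rose. Eosinophil markers rose in 2 of 3 tested (sum 3.04 to 4.15 and 7.54 to 10.8 RPKM), beside the rise of Alox15, and their defining gene Epx was at 0.311 ± 0.0509 and 0.0630 ± 0.0317 RPKM. Platelet markers gave 2 that rose and 2 that fell of 5 tested (none fell with libraries rescaled to the same sum), with sums of 34.5 to 39.5 and 112 to 124 RPKM that Ppbp moved from 0.347 ± 0.0951 to 75.1 ± 6.84 RPKM, beside the rises of Alox12, Ptgs1 and Tbxas1. T cell markers rose in 3 of 5 (sum 24.1 to 29.7 and 33.6 to 38.9 RPKM) and B cell markers in 3 of 4 (8.70 to 10.3 and 10.7 to 20.01 RPKM). The part of these cells in the results was not tested.

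Epithelial and stromal markers moved as well, and their counts stand beside the same shares of all genes tested (27.5% higher and 29.6% lower). Tuft cell markers, of interest because tuft cells of other organs are known to express Ptgs1, Alox5 and Hpgds, were higher in the 5 of 8 that were tested (4 passed with a trend on gene length removed), 2 of them (Trpm5 and Sh2d6) tested only because the libraries labelled Arid1a KO were high, with sums between 4.04 and 4.59 RPKM in the controls and between 11.2 and 12.5 RPKM in the libraries labelled Arid1a KO. Among 4 basal markers 2 rose, Krt5 and Krt14, and the sum was between 1331 and 1884 RPKM in the controls and between 2309 and 2584 RPKM in the libraries labelled Arid1a KO. Luminal markers fell in 3 of 5 (2 with libraries rescaled to the same sum; sums 1822 to 2224 and 1670 to 1781 RPKM). Seminal vesicle secretory genes fell in all 8, from sums between 19460 and 21980 RPKM to sums between 647 and 1632 RPKM, beside the falls of Ptges, Hpgd, Ptgr1 and Ggt1. Fibroblast markers fell in 3 of 5 (sum 1300 to 1868 and 983 to 1390 RPKM) and smooth muscle markers in 4 of 5, with Acta2 rising (114 to 133 and 96.0 to 118 RPKM), beside the fall of Ptgis, which such cells express. Endothelial markers rose in 1 of 4 (3 with libraries rescaled to the same sum; 25.99 to 35.1 and 37.5 to 47.8 RPKM). The part of these markers in the results was not tested either.

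**Figure D3:**
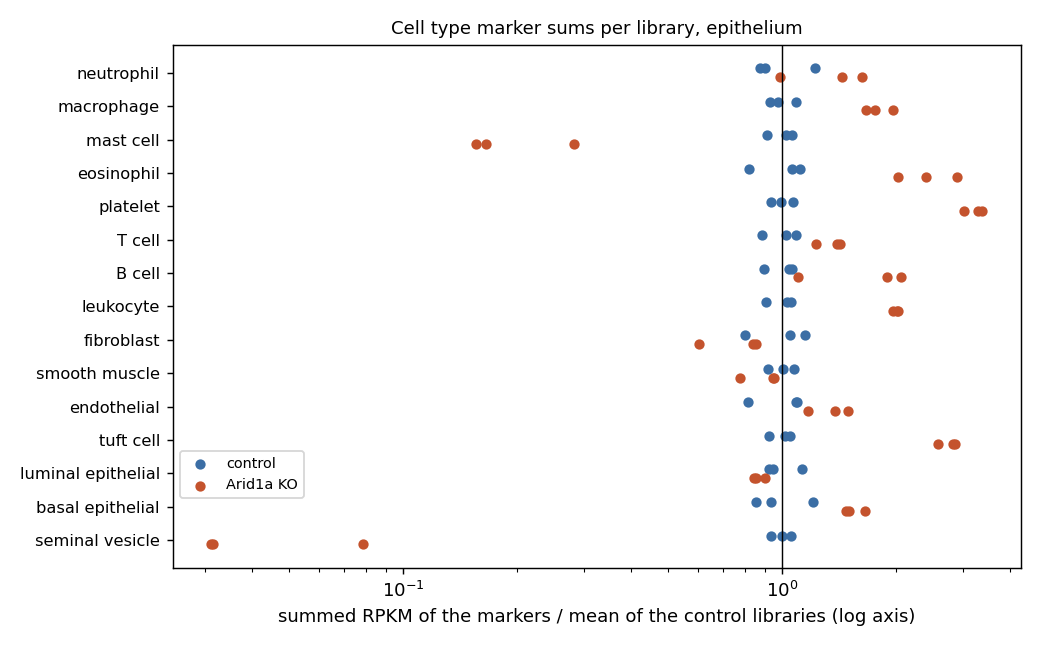
Summed RPKM of each list of cell type markers in every epithelium library, divided by the mean of the 3 control libraries (horizontal log axis), with controls in blue and libraries labelled Arid1a KO in orange. Mast cell and seminal vesicle sums lie far to the left in the libraries labelled Arid1a KO, macrophage, platelet, eosinophil, leukocyte and tuft cell sums to the right, and neutrophil, fibroblast and smooth muscle sums overlap.

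In Myc-CaP cells Ptges, Ptgs2, Ptgs1 and Ptgds had the highest levels among the 10 genes, and the others were low or listed at 0. Hpgd and Alox12 were listed at 0 in all 4 libraries, Alox5 was listed at 0 in 3 and at 0.0465 TPM in Arid1a KO library 2, and Ptger4 stayed under 0.31 TPM. Of the 10 genes 6 had a mean of at least 0.5 TPM and were tested. Of these, Ptgs2 and Ptges rose, Ptgds fell and the others did not pass, beside 6.43% of all genes that passed (4.54% higher and 1.89% lower). All 6 had groups that did not overlap, against 51.5% of all genes tested. Alox15 is among them, but it passed the filter on low values only through the Arid1a KO libraries. Its direction was therefore fixed by the filter. With 2 libraries against 2, the fit borrows much of its estimate of the spread from other genes, and every one of the 3 calls was lost when any library was left out, without the variance trend and without the filter on low values.

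Ptgs2 was at 55.1 and 66.5 TPM with the empty vector and at 95.1 and 115.7 TPM in Arid1a KO cells. Both knockout libraries lay above both controls, and the mean went from 60.8 ± 8.08 to 105 ± 14.6 TPM (SD, n = 2 each; log2 difference 0.78 ± 0.13, adjusted p = 0.0401). Ptgs1 was at 23.4 and 26.4 TPM with the empty vector and at 15.8 and 17.9 TPM in Arid1a KO cells. It lay lower in both knockout libraries but missed the threshold (log2 difference -0.54 ± 0.10, adjusted p = 0.0541), and it passed as lower under 4 of 12 alternatives, with adjusted p-values between 0.00614 and 0.0376. The ratio of Ptgs2 to Ptgs1 was 2.35 and 2.52 with the empty vector and 6.04 and 6.45 after knockout, and the knockout ratios lay above both controls, as they did in the epithelium.

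Ptges had the highest level of the 10 genes in Myc-CaP cells, at 148 and 145 TPM with the empty vector and at 189 and 185 TPM in Arid1a KO cells. It rose there (log2 difference 0.35 ± 0.05, adjusted p = 0.0271), whereas it had fallen in the epithelium, and since the tables were normalized separately this difference was not tested. Ptgds was at 5.52 and 4.56 TPM with the empty vector and at 2.40 and 2.03 TPM in Arid1a KO cells, about 80.5, 58.4, 32.9 and 25.3 reads by estimate. It fell (log2 difference -0.91 ± 0.16, adjusted p = 0.0401). It was lower in the epithelium too, but there its direction was fixed by the filter on low values. Alox5ap was at 0.675 and 0.384 TPM with the empty vector and at 1.43 and 1.95 TPM in Arid1a KO cells (adjusted p = 0.113), and Alox15 was at 0.442 and 0.307 and at 0.612 and 0.722 TPM (adjusted p = 0.517). These values rest on about 4.20 to 20.9 reads each and did not pass.

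**Figure D4:**
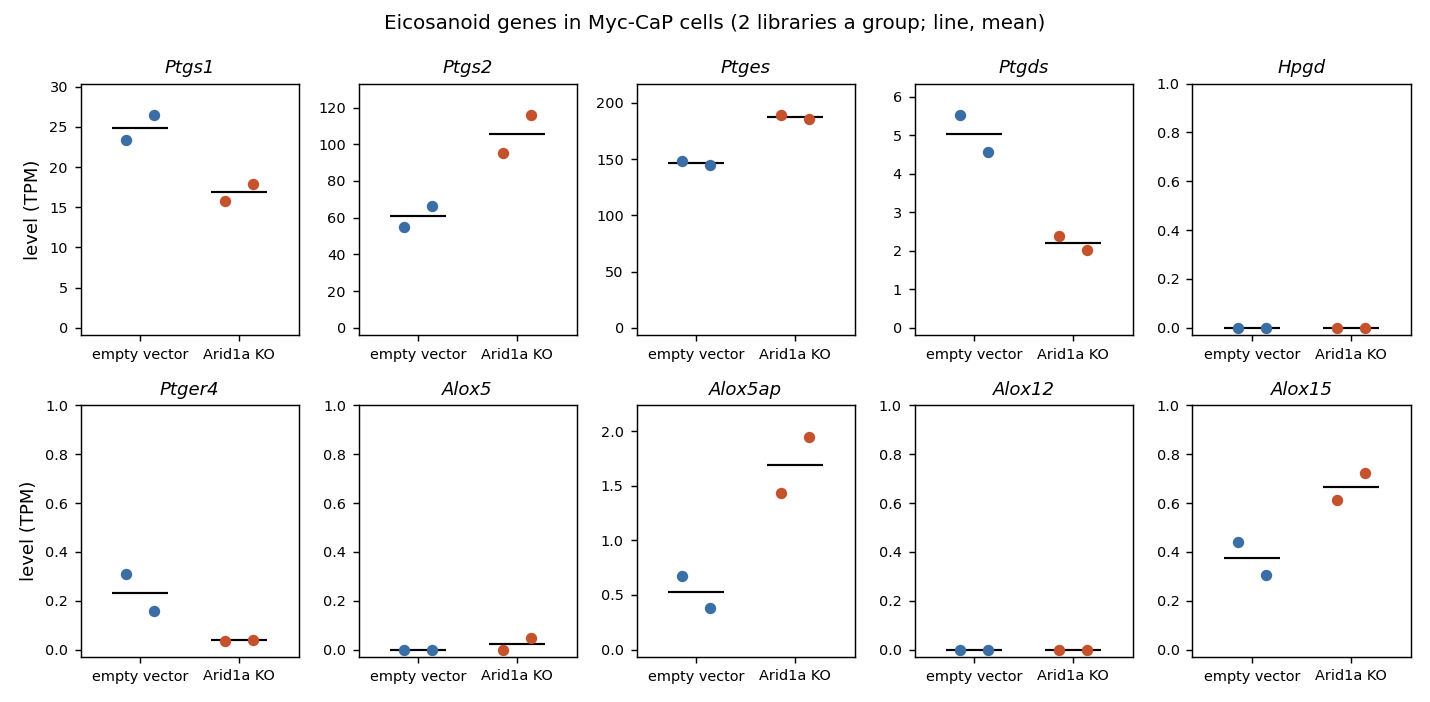
Level of each gene in TPM (vertical axis, starting at 0, a separate scale for each gene) in the 2 empty vector libraries (blue) and the 2 Arid1a KO libraries (orange) of Myc-CaP cells, the line being the mean. Hpgd and Alox12 sit at 0 in every library, Ptgs2 and Ptges lie higher and Ptgds lower in the Arid1a KO libraries.

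**Figure D5:**
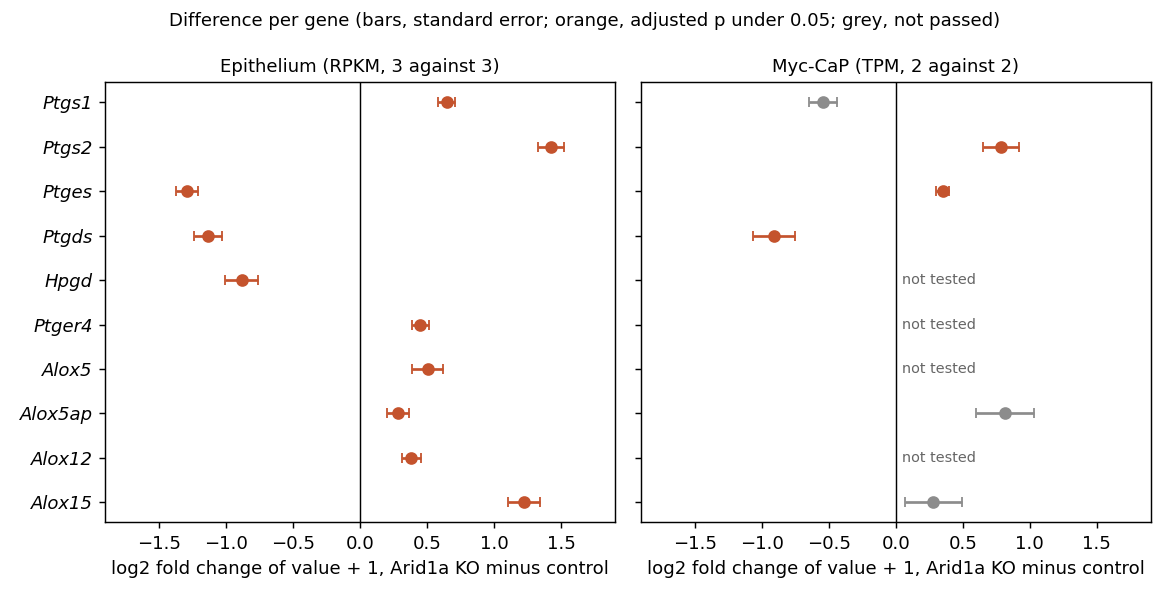
Log2 fold change of value + 1 (horizontal axis, libraries labelled Arid1a KO minus control, bars are standard errors) for the 10 genes in the epithelium (left) and in Myc-CaP cells (right), orange where the test was passed and grey where it was not. Ptgs2 lies to the right in both panels and Ptgds to the left in both, while Ptges and Ptgs1 lie on opposite sides. The direction of Ptgds in the epithelium was fixed by the filter on low values.

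Of the 59 other pathway genes, 25 were tested in Myc-CaP cells, and the 4 that passed all fell. Over all genes tested there, 6.43% passed (4.54% higher and 1.89% lower). All 4 calls were lost on leaving out any library, and 2 of them with no filter on low values. That of Pla2g12a was lost under 6 of 12 alternatives. Slco2a1, the prostaglandin uptake transporter, fell from 426 and 409 TPM to 272.2 and 273 TPM (log2 difference -0.61, adjusted p = 0.00694). Mgst2, a microsomal glutathione transferase that can make leukotriene C4, fell from 95.0 ± 2.68 to 50.8 ± 4.53 TPM (adjusted p = 0.00809). Cbr1 (-0.71 on the log2 scale, adjusted p = 0.0364) and Pla2g12a (-0.38, adjusted p = 0.0261) fell as they had in the epithelium. The most abundant genes of the lists that did not pass were Anxa1 (4276 ± 255 and 4087 ± 204 TPM, adjusted p = 0.691), Akr1b3 (653 ± 49.1 and 550 ± 38.3 TPM, adjusted p = 0.173) and Ptger1 (18.7 ± 0.357 and 22.2 ± 0.186 TPM, adjusted p = 0.144). Aloxe3, an epidermal lipoxygenase, was at 4.02 ± 0.0804 and 1.98 ± 0.425 TPM (adjusted p = 0.0686), and of the 6 leukotriene and lipoxin receptors none was tested.

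Markers of mast cells, neutrophils and macrophages were at or near 0 in Myc-CaP cells. Mast cell markers were listed at 0 in all 4 libraries, neutrophil markers summed to at most 0.435 TPM, and 8 of the 9 macrophage markers were too low to test, with sums between 0.867 and 3.07 TPM with the empty vector and between 1.63 and 2.63 TPM in Arid1a KO cells. Of the platelet list, Ppbp (6.63 to 7.18 and 10.2 to 12.02 TPM), Pf4 (5.24 to 5.51 and 3.58 to 5.14 TPM) and Itga2b were tested and did not pass, and all 8 markers summed to 13.02 to 13.8 TPM with the empty vector and 16.2 to 16.3 TPM in Arid1a KO cells.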

How the data were processed

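RNA-seq was available for 10 mouse samples in 4 groups taken from the genotype and title labels. The authors deposited RPKM values for the sorted epithelium and TPM values for Myc-CaP cells. Their methods name TopHat2 on GRCm38 and strand-specific HTSeq-count, whereas the submitters' processing notes name HISAT2, HTSeq, DESeq2 and mm10; gene lengths and annotation are not given in the sources used here. Each table held 48897 rows, 27 of them named as dates, and 0 values differed from the per-sample tables. Loci, lengths and overlapping genes came from GENCODE M21 (GRCm38), promoter windows from RefSeq.

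The test covered genes whose mean reached 0.5, on log2(value + 1) with limma 3.58.1 (lmFit, eBayes with trend) in R 4.3.3, each table on its own, 2 groups and no covariate, two-sided, Benjamini-Hochberg over all genes tested (16275 in the epithelium and 13974 in Myc-CaP cells), called at an adjusted p under 0.05. DEGseq, the count test of the study, could not be used on these units. The script was tested on simulated data. An exact permutation test of a single gene cannot go below 0.1 with 3 against 3 libraries or 0.333 with 2 against 2. Methods give 3 mice per genotype; nothing says that the Myc-CaP libraries came from separate cultures, so their p-values measure the spread between these libraries, which may be technical.

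Depth in reads is not in the files. It was estimated from the steps between low values as about 28.9 to 36.6 reads per RPKM unit and kilobase of gene in the epithelium libraries. Because only 30.4% to 37.7% of low values came out whole (within 0.05 of a read), reads are estimates and no counting interval is given. TPM keeps no depth. RPKM summed to between 397999 and 473332 per library.

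The members and all lists (7 of pathway genes, 15 of cell type markers) were chosen with earlier results of these data known, and the promoter motifs after the sequences had been seen. All members were to be named, and of the pathway lists each gene called with a log2 change of at least 1 and groups apart and the most abundant gene of each list. Tbxas1, Hpgds, Ltc4s, Lta4h, Cysltr1, Pla2g4a, Ptger2, Ptger3, Ptgir, Tbxa2r, Ptges2, Ptges3, Abcc4, Slco2a1 and Ptgr2 in the epithelium, Cbr1, Pla2g12a and Ptger1 in Myc-CaP cells, Pla2g2d, Pla2g2e and Cysltr2, Ptgs2os, Ptgs2os2 and the single markers were added after their values were seen. An allele and a gene of the design are not reported here. Alternatives were a pseudocount of 0.1, no filter, a minimum mean of 5, libraries rescaled to the same sum, quantile normalization, no variance trend, removal of a length trend, a replicate block and leaving out each library.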

Additional observations from a re-analysis of the deposited data

Results flagged for a closer look

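Of the genes named by rule, 5 lay to one side of all controls in every epithelium library labelled Arid1a KO and to the opposite side in every Arid1a KO library of Myc-CaP cells, given as the difference of mean log2(value + 1). Ptges differed by -1.29 in the epithelium and 0.35 in Myc-CaP cells. Ptgs1 differed by 0.64 in the epithelium and -0.54 in Myc-CaP cells. Ptger4 differed by 0.45 in the epithelium and -0.24 in Myc-CaP cells, where its 4 values rest on about 2 to 18.1 reads each. Ggt1 differed by -3.10 in the epithelium and 0.78 in Myc-CaP cells, and Dpep1 by -1.31 and 0.10. The Myc-CaP values of Ptgs1, Ggt1 and Dpep1 did not pass the test on their own and Ptger4 was too low for it. The difference between the systems was not tested, because the tables are in different units and were normalized separately.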

How the results depend on the processing

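In the epithelium the 10 genes kept their direction under all 14 alternatives in which each could be tested, and 133 of 136 tests kept their call; the 3 that did not were Alox5ap without control A, control C or Arid1a KO library A. With a minimum mean of 5, 5872 genes of all were called instead of 9294, of a smaller number tested. No other count of genes, members or pathway genes moved by over 1.5 times there, and over the leave-one-out fits the members called were 8 to 10. In Myc-CaP cells the 3 calls among the members became 0 with no filter, 0 without the variance trend and 0 to 0 on leaving out each library. The 899 genes called of all became 358 with no filter, 451 without the trend and 47 to 76 on leaving out each library. The 4 pathway genes became 2 with no filter and 0 to 0 on leaving out each library. No call changed direction under any alternative run. With a replicate block, Myc-CaP cells gave 2771 genes of all, 10 pathway genes and 4 members (Ptgs1 added, adjusted p = 0.00614), and the epithelium 8823, 29 and 10. Same-numbered libraries deviated from their group means with r = 0.041, 0.009 and -0.057 in the epithelium. In Myc-CaP cells r was 0.195, a single value, because the 2 libraries of a group deviate as mirror images. The labels give no shared origin, so whether same-numbered libraries were prepared together is not known. Ptgs1 also passed in Myc-CaP cells with a minimum mean of 5 (0.0376), quantile normalization (0.0324) and a length trend removed (0.0304). The causes were not tested. Depth limits Ptgds, Alox15 and the Myc-CaP lipoxygenase genes, which rest on few reads.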
